A study of Arabidopsis thaliana with 24 samples.

Results

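The response of wild-type *Arabidopsis thaliana* roots to 16 h without phosphate was described from 8 of the 24 RNA-seq libraries of a study of acid soil stress. Members were chosen by their labels alone. The 4 low Pi libraries came from -Pi_pH6 and -Pi_pH5, and the 4 libraries with Pi came from +Pi_pH6 and +Pi_pH5, with 2 biological replicates per condition. All 20450 genes of the table were tested, with medium pH as a covariate, to find which genes respond to the loss of Pi and whether they do so at each pH. The -Pi media held 0 mM phosphate and the +Pi media 1 mM. The 8 libraries shared the Col-0 ecotype, growth for 5 days after germination and a move to dilute liquid MS medium. They also shared a base supply of 10 µM iron, with no added aluminum and no excess iron. Pi was given as KH2PO4, and the study names no potassium salt in its place, so potassium may also differ between the media. Whether free iron, as against the supply, was equal with and without Pi is not known here. Each library was a pool of root tips from many seedlings, so it averages over plants and over the cell types of the tip. The same 4 media were also given to 8 libraries of *stop1*, a T-DNA line that has lost the transcription factor STOP1, and these are used below only to set the wild-type values beside those of the mutant.

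Between 17847428 and 30516150 reads per library fell on genes. Levels are in CPM, the reads of a gene scaled to a common library total, and changes are differences of log2(CPM + 1) between low Pi and Pi, with 1 standard error (SE), so that the fold of a gene with low CPM is understated. All 12 genes that mark root cell types, among them *SCR*, *GL2*, *WOX5* and *CASP1*, had reads in every library, and their summed level was 274 to 314 CPM in low Pi libraries and 273 to 293 CPM with Pi. Libraries stood apart in 2 ways. As photosynthesis genes of the shoot, the 43 genes whose symbols begin with LHCA, LHCB, RBCS, PSA or PSB were taken. This prefix rule also took in *PSAT1* (AT1G04010), a sterol acyltransferase and not a photosynthesis gene. The 43 genes summed to 387 to 487 CPM in low Pi libraries, against 389 to 1988 CPM with Pi. The sum was highest in replicate 2 of +Pi_pH5 and next, at 623 CPM, in replicate 1 of +Pi_pH6. Their median change was -0.71. None was called by limma with 8 or with 24 libraries, and the edgeR likelihood ratio test called 3 lower. The 4 genes of the Rubisco small subunit reached 671 and 129 CPM in those libraries and 1.83 to 9.46 CPM in the low Pi ones. In addition, 9 genes, most of them annotated to ribosomal RNA processing or to methyltransferases, were low in replicate 2 of -Pi_pH6, both libraries of +Pi_pH6 and replicate 1 of +Pi_pH5 and high in the other 4 libraries. None of them was called, and their values are given among the closing observations. The part of these features in the results was not tested. In bulk tissue, fewer cells of a type and less RNA per cell cannot be told apart.

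Plants take up phosphorus as inorganic phosphate (Pi). Their phosphate starvation response is led by PHR1, a MYB factor that binds the short palindrome known as P1BS in the promoters of its targets. When Pi is ample, inositol pyrophosphates let SPX-domain proteins hold PHR1 away from DNA. When Pi falls, PHR1 is released and its targets raise Pi uptake, free Pi from organic esters, and replace phospholipids with galactolipids and sulfolipids. In root tips, low Pi also acts together with iron: the ferroxidase LPR1 and the malate channel ALMT1, a target of STOP1, lie on a pathway that halts growth of the primary root.

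Across both pH values the response was small in number and led by phosphate genes. Of 20450 genes, 2 rose in low Pi (0.00978% of those tested), and both belong to the phosphate starvation response. *SPX1*, which encodes an SPX protein that restrains PHR1, rose 11.4-fold, and *G3Pp1*, which encodes a putative glycerol-3-phosphate permease, rose 6.84-fold. A single gene fell (0.00489%), AT4G10500, annotated as a 2-oxoglutarate and Fe(II)-dependent oxygenase. The test was limma with a Benjamini-Hochberg adjusted p under 0.05, and 1328 genes had an unadjusted p under 0.05. The median change over all genes was -0.0028, and the fitted change was positive for 10059 of them (49.2%).

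These counts rest on few libraries. No gene rose when replicate 2 of -Pi_pH6, replicate 2 of +Pi_pH6 or any 1 of the 4 libraries at pH 5 was left out, and 4 rose without replicate 1 of -Pi_pH6. The count of genes that fell was 11 without replicate 1 of +Pi_pH6, 1 without replicate 1 of -Pi_pH6, and 0 without any other single library. Without both libraries rich in shoot genes, a setting chosen after seeing the data, the counts were 0 and 1. When the spread was estimated from all 24 libraries, 36 genes were higher (0.176%) and 35 lower (0.171%) in the same wild-type contrast. The edgeR likelihood ratio test that the study used, applied to reads recovered from the deposited values of the 8 libraries, gave 45 genes higher (0.22%) and 101 lower (0.494%). Of the 36 higher genes, 29 were among the 45, and of the 35 lower genes, 34 were among the 101. Independently of any test, all 4 low Pi libraries lay above all 4 libraries with Pi for 297 genes (1.45%) and below them for 250 (1.22%).

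**Figure D1:**
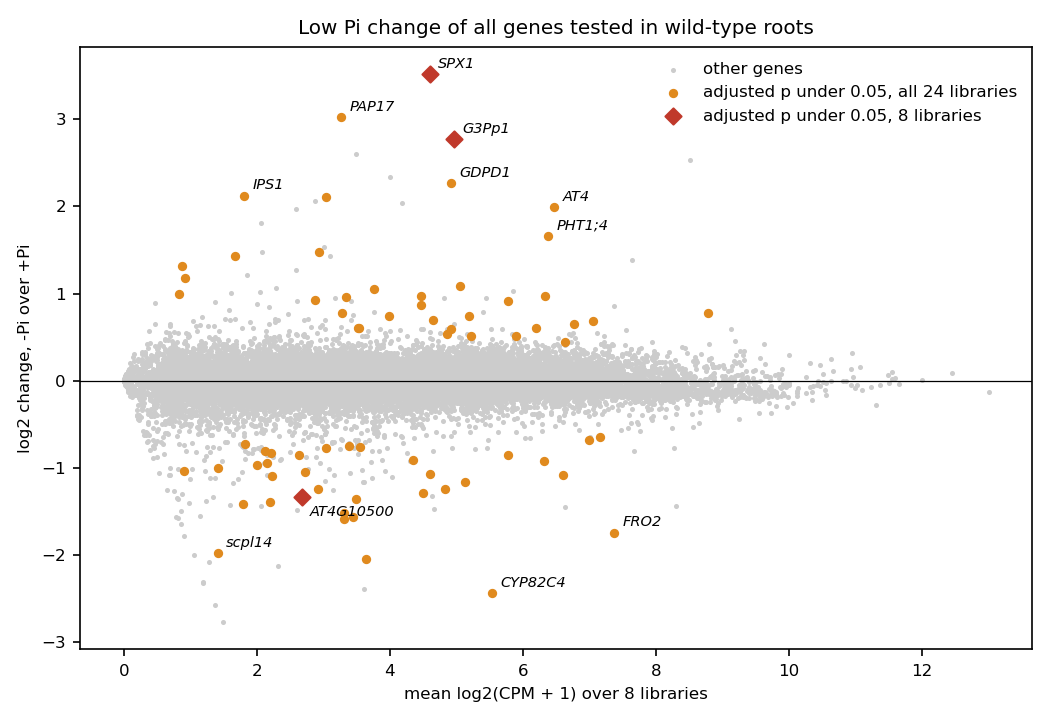
Change of each gene in low Pi (y axis, log2 of -Pi over +Pi on log2(CPM + 1), pH as covariate) against its mean level over the 8 wild-type libraries (x axis, log2(CPM + 1)). The 3 diamonds are the genes called with 8 libraries, *SPX1* at 3.51, *G3Pp1* at 2.77 and AT4G10500 at -1.33, circles are the 71 genes called when all 24 libraries set the spread (those that are not diamonds), and grey points are the other genes.

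The genes of phosphate sensing and signalling were led by *SPX1* (AT5G20150, chromosome 5, 6802282 to 6803655, TAIR10.1). *SPX1* had 205 and 94.4 CPM in -Pi_pH6 and 41.2 and 53.7 CPM in -Pi_pH5, against 5.05 and 5.75 CPM in +Pi_pH6 and 7.71 and 6.53 CPM in +Pi_pH5. The lowest low Pi library was above the highest library with Pi by a wide margin, and the -Pi_pH6 libraries were higher than those of -Pi_pH5. The change was 3.51 ± 0.38 over both pH values (limma adjusted p = 0.0495), and over 21 alternatives its adjusted p lay between 2.28e-13 and 0.308, with 11 under the threshold. Within pH 6 it was 4.46 ± 0.32, a 22.0-fold rise (limma adjusted p = 0.0029). Within pH 5 it was 2.57 ± 0.32 (limma adjusted p = 0.104).

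*IPS1* and *AT4* encode noncoding RNAs that sequester the microRNA miR399, which otherwise cuts the message of *PHO2*. *IPS1* had 32.0 and 11.4 CPM in -Pi_pH6, against 0.51 and 0.814 CPM in +Pi_pH6, and rose 12.2-fold at that pH (limma adjusted p = 0.032). At pH 5 its levels were 1.46 and 1.84 CPM in low Pi and 0.814 and 0.605 CPM with Pi, a change of 0.63 ± 0.39 that was not called. *IPS1* therefore stood far from its +Pi level at pH 6. At pH 5 both low Pi libraries were also above both libraries with Pi, at levels where the pseudocount of 1 understates the fold. *AT4* had 381 and 178 CPM in -Pi_pH6 and 111 and 126 CPM in -Pi_pH5, against 34.9 and 39.2 CPM in +Pi_pH6 and 50.7 and 51.5 CPM in +Pi_pH5. The groups did not overlap at either pH. *AT4* rose 6.89-fold at pH 6 (limma adjusted p = 0.0293), and its change at pH 5 was 1.19 (limma adjusted p = 1).

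P1BS, written GNATATNC and identical to its own reverse complement, was searched in the promoters of genes that rose. Sequences are from RefSeq (TAIR10.1), 5′ to 3′ on the strand of the gene, with P1BS in capitals and 10 bases on each side. They show how the palindrome sits near the genes that lead the response, and a match is a description of the letters, not of binding. In *SPX1* one match lay 735 bases before the annotated start (chr5:6801537-6801564, plus strand) and the other began 22 bases after it (chr5:6802294-6802321, plus strand). In *IPS1* the nearer of 2 matches lay 548 bases before the start (chr3:3050431-3050458, plus strand), and in *AT4* 26 bases before it (chr5:894546-894573, plus strand).
SPX1 upstream: ttcctatcaaGAATATTCcatggaatcc
SPX1 at the start: agagaaaaaaGGATATTCtaattagaaa
IPS1: attctcaaaaGCATATTCacgtaagact
AT4: ttggtaattgGCATATTCcttttagaag

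Other regulators moved less or were level. *SPX2* had 47.6 and 30.2 CPM in -Pi_pH6 and 24.1 and 26.2 CPM in -Pi_pH5, against 18.3 and 19.7 CPM in +Pi_pH6 and 17.3 and 19.3 CPM in +Pi_pH5. The groups did not overlap, and the change of 0.70 ± 0.16 was not called with 8 libraries (limma adjusted p = 0.354) and passed when all 24 set the spread. *PHR1* itself had 54.7, 58.2, 54.5 and 56.2 CPM in low Pi and 51.2, 60.1, 56.1 and 53.4 CPM with Pi, a change of 0.02 (limma adjusted p = 0.959). *PHO2*, the ubiquitin-conjugating enzyme that removes phosphate transporters, had 188 to 309 CPM in low Pi and 291 to 405 CPM with Pi, and its change of -0.54 ± 0.17 was not called (limma adjusted p = 0.729). *ITPK1*, a kinase of inositol phosphates, had 50.6 to 62.1 CPM in low Pi and 63.3 to 66.2 CPM with Pi. Its groups did not overlap, but the change of -0.17 was not called.

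In all, 25 of the 26 listed signalling genes were in the table. Their median change was 0.12 beside -0.0028 over all genes. In low Pi, 4 lay wholly higher (*SPX1*, *SPX2*, *IPS1* and *AT4*, 16%, against 1.45% of all genes). *ITPK1* alone lay wholly lower (4%, against 1.22% of all genes), and the other 20 overlapped. No primary transcript of the *MIR399*, *MIR827*, *MIR2111* or *MIR778* loci was among the genes of the table, so these microRNAs were not analysed here.

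**Figure D2:**
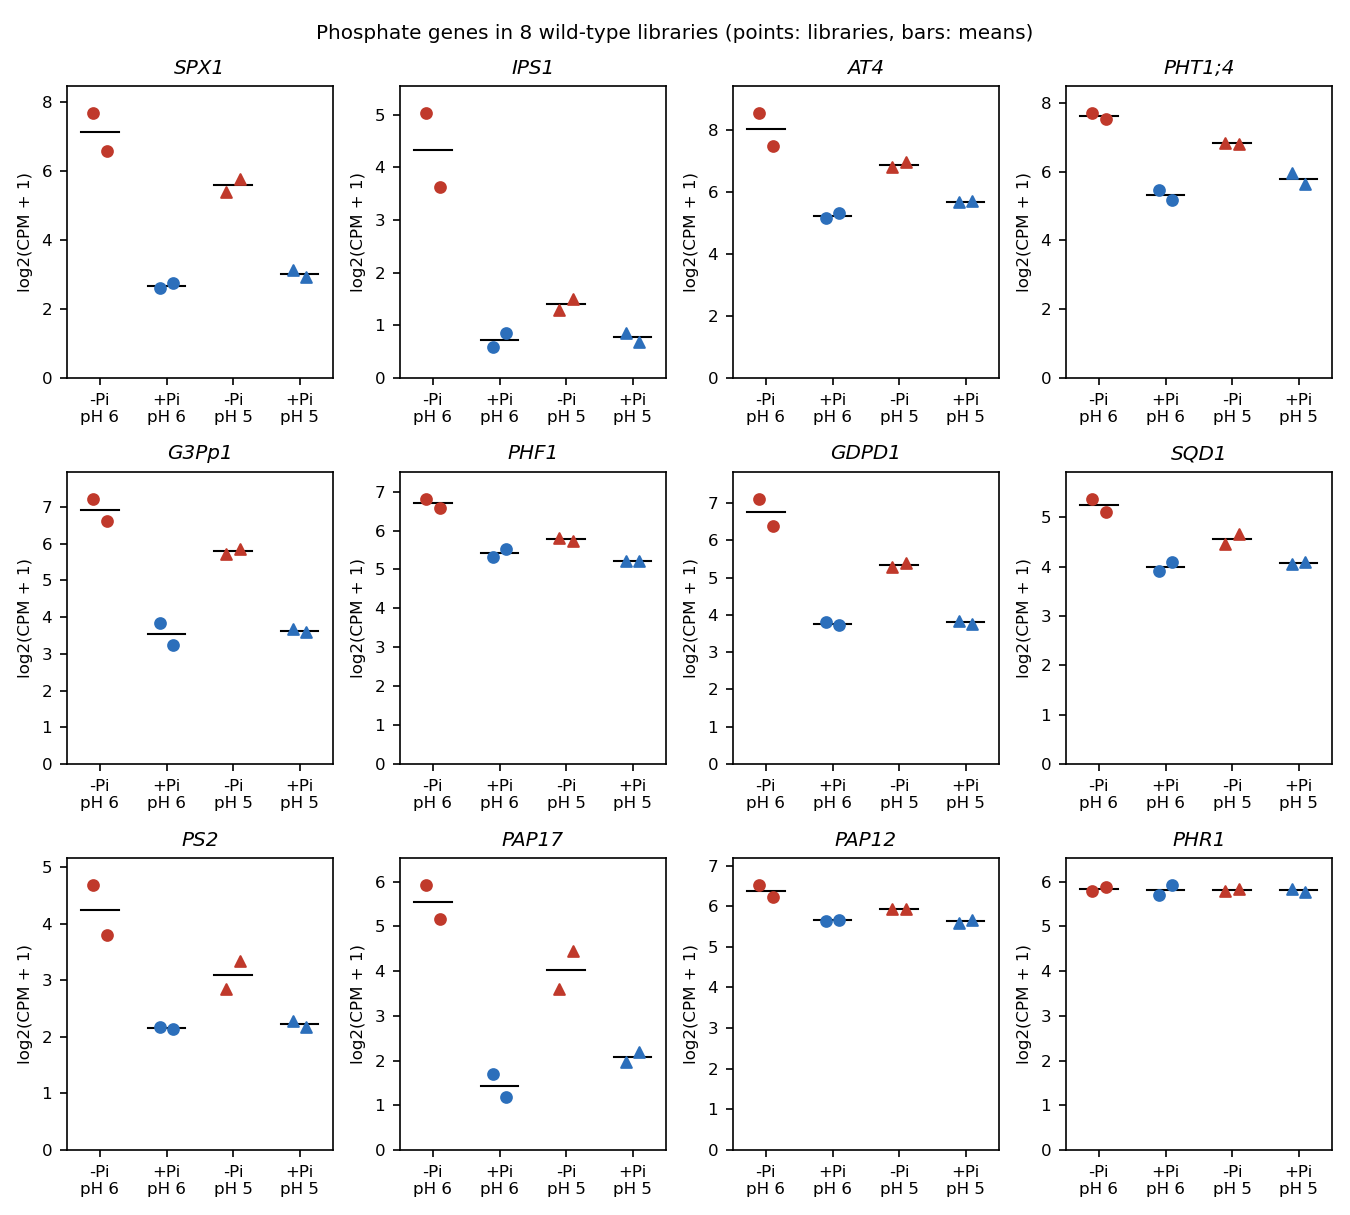
Levels of 12 phosphate genes in the 8 wild-type libraries (y axis, log2(CPM + 1); x axis, condition; red, -Pi; blue, +Pi; circles, pH 6; triangles, pH 5; bars, means of 2 libraries). The red points lie above the blue ones at each pH for every gene except *PHR1*, and for *IPS1* the gap is 3.61 at pH 6 and 0.63 at pH 5.

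Among the genes of phosphate transport, *G3Pp1* (AT3G47420, chromosome 3, 17472297 to 17475274) had 149 and 97.4 CPM in -Pi_pH6 and 51.9 and 57.0 CPM in -Pi_pH5, against 13.3 and 8.39 CPM in +Pi_pH6 and 11.8 and 11 CPM in +Pi_pH5. Every low Pi library was above every library with Pi. The change was 2.77 ± 0.26 over both pH values (limma adjusted p = 0.0401), with adjusted p between 3.25e-27 and 0.231 over 21 alternatives and 13 under the threshold. It was 3.39 at pH 6 (limma adjusted p = 0.0029) and 2.16 at pH 5 (limma adjusted p = 0.0876).

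The PHT1 proteins are proton-coupled Pi transporters of the plasma membrane. *PHT1;4* had 209 and 183 CPM in -Pi_pH6 and 113 and 110 CPM in -Pi_pH5, against 42.9 and 35.2 CPM in +Pi_pH6 and 60.7 and 48.5 CPM in +Pi_pH5. All low Pi libraries were higher. *PHT1;4* rose 4.93-fold at pH 6 (limma adjusted p = 0.0029), while its change at pH 5 was 1.03 (limma adjusted p = 0.16) and over both 1.67 ± 0.23 (limma adjusted p = 0.105). *PHT1;2* had 14.1 and 10.6 CPM in -Pi_pH6, against 0.612 and 1.42 CPM in +Pi_pH6, and rose 6.69-fold there (limma adjusted p = 0.00979). At pH 5 it had 0.94 and 1.26 CPM in low Pi and 1.03 and 0.806 CPM with Pi, so that the 2 groups overlapped. *PHT1;1*, a main importer of Pi into the root, had 941 and 905 CPM in -Pi_pH6 and 400 and 319 CPM in -Pi_pH5, against 358 and 417 CPM in +Pi_pH6 and 308 and 268 CPM in +Pi_pH5. Its low Pi libraries stood above those with Pi at each pH, and those of -Pi_pH5 overlapped with +Pi_pH6. The change over both was 0.78 ± 0.19 (limma adjusted p = 0.427). Of the 50-base stretches of *PHT1;1* and *PHT1;2*, 42.5% and 45.6% also occur in other genes of the family, so reads of these genes may be split or lost in counting.

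*PHF1*, which encodes the protein that lets PHT1 transporters leave the endoplasmic reticulum, had 112 and 94.8 CPM in -Pi_pH6 and 55.2 and 52.0 CPM in -Pi_pH5, against 38.8 and 45.2 CPM in +Pi_pH6 and 36.0 in both libraries of +Pi_pH5. It rose 2.43-fold at pH 6 (limma adjusted p = 0.025), with a change of 0.56 at pH 5 (limma adjusted p = 0.921). *PHO1;H1*, a homologue of the Pi exporter *PHO1*, had 37.4 to 54.6 CPM in low Pi and 25.8 to 32.1 CPM with Pi, with no overlap and an adjusted p of 0.37 by limma. It was called in 2 of 21 alternatives. *PHT1;8* is listed at 0.522, 0.396, 0 and 0 CPM in low Pi and at 0 with Pi. Of 18 listed transport genes 14 were in the table, with a median change of 0.40, which was 0.60 at pH 6 and 0.22 at pH 5. In 4 of them the low Pi libraries lay wholly higher (28.6%, against 1.45% of all genes) and in none wholly lower. When all 24 libraries set the spread, 5 were higher (*PHT1;1*, *PHT1;2*, *PHT1;4*, *PHF1* and *G3Pp1*) and none lower. The edgeR likelihood ratio test called 7 of the 14 higher and none lower.

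P1BS matches of the transporter genes are shown because *PHT1;4* and *PHT1;2* carry one close to the start, 7 bases before it in *PHT1;4* (chr2:16257140-16257167, plus strand) and 42 bases before it in *PHT1;2* (chr5:17415646-17415673, plus strand). None was found in the window from 250 bases before to 50 bases after the start of *G3Pp1*.
PHT1;4: ttgttcggaaGAATATACcgaagtagca
PHT1;2: atataaatatGGATATACccttaagatt

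Of the listed genes of membrane lipid remodelling, *GDPD1* and *SQD1* rose at pH 6. *PLDP2* (AT3G05630), for phospholipase D zeta 2, was not on the lists and was also among the 12 genes that rose at pH 6. It is named here after the results were seen. *GDPD1* encodes a glycerophosphodiester phosphodiesterase, which releases glycerol-3-phosphate from deacylated phospholipids. It had 138 and 82.8 CPM in -Pi_pH6 and 38.3 and 41.0 CPM in -Pi_pH5, against 13.1 and 12.2 CPM in +Pi_pH6 and 13.3 and 12.6 CPM in +Pi_pH5. The low Pi libraries were all higher, and the libraries with Pi were nearly level across pH. The change was 2.26 ± 0.28 over both pH values (limma adjusted p = 0.0648). At pH 6 *GDPD1* rose 7.93-fold (limma adjusted p = 0.0029), and at pH 5 the change was 1.54 (limma adjusted p = 0.143). *SQD1*, which encodes the enzyme that makes UDP-sulfoquinovose for sulfolipids, had 40.7 and 33.4 CPM in -Pi_pH6 and 21.0 and 24.5 CPM in -Pi_pH5, against 14 to 16.1 CPM in the 4 libraries with Pi. *SQD1* rose 2.38-fold at pH 6 (limma adjusted p = 0.0438), and its change at pH 5 was 0.49.

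*PS2*, annotated as an inorganic pyrophosphatase and long used as a marker of Pi starvation, had 24.9 and 12.9 CPM in -Pi_pH6 and 6.21 and 9.16 CPM in -Pi_pH5, against 3.41 to 3.85 CPM with Pi. No library overlapped, and the change was 1.48 ± 0.28 (limma adjusted p = 0.261; passed when all 24 libraries set the spread). Further genes whose low Pi libraries all lay above those with Pi, with no call by limma with 8 or 24 libraries, were *SQD2* for sulfolipid synthase (37.4 to 61.1 CPM in low Pi, 25.6 to 34.8 CPM with Pi), *UGP3* for UDP-glucose supply to sulfolipids (11.4 to 17.5 CPM and 8.24 to 10.4 CPM), *GDPD2* (41.9 to 94.7 CPM and 23.8 to 40.2 CPM), *DGD1* for digalactosyl lipid (11.1 to 12.3 CPM and 7.33 to 10.4 CPM) and *PAH1* for phosphatidate phosphatase (27.0 to 37.0 CPM and 22.1 to 26.3 CPM). Of these, *UGP3* was called by the edgeR likelihood ratio test and by DESeq2. *DGD2* was level at a change of 0.02. Of 22 listed lipid genes 19 were in the table. Their median change was 0.30. In low Pi, 8 lay wholly higher (42.1%, against 1.45% of all genes) and none wholly lower. When all 24 libraries set the spread, 3 passed (*GDPD1*, *SQD1* and *PS2*).

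The *GDPD1* promoter held 4 P1BS matches within the kilobase before its start, of which the 2 nearest are printed (63 bases before, chr3:350056-350083; 127 bases before, chr3:350120-350147; both on the minus strand of the genome). *PS2* had one 217 bases before its start (chr1:27466548-27466575, minus strand), and in *SQD1* it began 14 bases after the start (chr4:15935377-15935404, plus strand).
GDPD1 nearest: gcgatccaaaGAATATTCcaagatccca
GDPD1 next: agaggggaggGAATATCCaaaagggata
PS2: ttgggtaacgGAATATTCttctcttatt
SQD1: gaataagtaaGAATATGCtttgggcata

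Among the phosphatases and ribonucleases that scavenge Pi from organic matter, 2 genes stood out. *PAP17*, a purple acid phosphatase, had 60.2 and 34.7 CPM in -Pi_pH6 and 11.2 and 20.8 CPM in -Pi_pH5, against 2.24 and 1.27 CPM in +Pi_pH6 and 2.93 and 3.55 CPM in +Pi_pH5. It rose 17.2-fold at pH 6 (limma adjusted p = 0.00747), its change at pH 5 was 1.95 (limma adjusted p = 0.335) and over both 3.03 ± 0.42 (limma adjusted p = 0.105). *PAP12*, a secreted acid phosphatase, had 91.5 and 73.2 CPM in -Pi_pH6 and 59.7 and 60.3 CPM in -Pi_pH5, against 47.0 to 50 CPM with Pi, a change of 0.51 ± 0.11 (limma adjusted p = 0.299). Both passed when all 24 libraries set the spread. The remaining 12 of 14 phosphatase genes in the table overlapped between groups, *PAP10* and *PAP26* with changes of 0.22 and 0.01. The 2 genes that lay wholly higher were 14.3% of the 14, against 1.45% of all genes, and the median change of the 14 was 0.02.

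Phosphoenolpyruvate carboxylase makes oxaloacetate for malate and citrate and frees Pi in doing so. *PPC1* had 434 to 567 CPM in low Pi and 366 to 404 CPM with Pi. *PPC2* had 31.7 to 48.6 CPM in low Pi and 22.1 to 31.4 CPM with Pi, and *PPCK2*, for the activating kinase, had 21.8 to 33.1 CPM and 14.7 to 21.4 CPM. These 3 of the 5 listed genes lay wholly higher in low Pi (60%, against 1.45% of all genes). None passed by limma with 8 or with 24 libraries, while DESeq2 called *PPC1* (*PPC1*: change 0.42 ± 0.10, limma adjusted p = 0.427). The median change of the 5 was 0.42.

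Over these 5 lists, 77 of 91 genes were in the table. The low Pi libraries lay wholly above those with Pi for 21 of the 77 (27.3%, against 1.45% of all genes) and wholly below for 1 (1.3%, against 1.22%). The fitted change was positive for 64 of the 77, and the median was 0.22. With 8 libraries 2 of the 77 were called, 14 when all 24 libraries set the spread, and 18 by the edgeR likelihood ratio test, all of them higher. The lists were chosen with earlier results of these data known, so these counts describe the genes and are no independent evidence.

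The change was then taken at each pH separately. At pH 6, 12 genes rose (0.0587%) and 1 fell (0.00489%). Of the 12, 10 belong to the phosphate lists: *SPX1*, *IPS1*, *AT4*, *G3Pp1*, *PHT1;4*, *PHT1;2*, *PHF1*, *GDPD1*, *SQD1* and *PAP17*. The others were *PLDP2* and AT5G20790. At pH 5 no gene rose (0%) and 3 fell (0.0147%), all of them genes of iron or zinc handling described below. At pH 5, 698 genes had an unadjusted p under 0.05 by limma, and the edgeR likelihood ratio, edgeR quasi-likelihood and DESeq2 tests gave 12, 0 and 15 genes higher. Leaving out 1 library at a time left 3 to 12 genes higher at pH 6, fewest without replicate 2 of +Pi_pH6. The same omissions left 0 to 4 higher and 0 to 8 lower at pH 5, with 0 lower without either library of -Pi_pH5 or without replicate 2 of +Pi_pH5. When all 24 libraries set the spread, 29 genes were higher (0.142%) and 5 lower (0.0244%) at pH 6, and 6 were higher (0.0293%) and 11 lower (0.0538%) at pH 5. The higher sets shared 5 genes. Of the 77 phosphate genes in the table, 14 were in the higher set at pH 6 and 4 in that at pH 5.

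The difference between the changes at pH 6 and pH 5 was tested directly. No gene passed the interaction of Pi and pH by limma (0 of 20450, 0%), with 472 genes at an unadjusted p under 0.05. The edgeR likelihood ratio, edgeR quasi-likelihood and DESeq2 tests gave 17, 0 and 17. *PHT1;2* was the gene called when all 24 libraries set the spread, with a change that was 2.61 ± 0.34 lower at pH 5 (limma adjusted p = 0.594 with 8 libraries). The larger response at pH 6 is therefore a description of levels. With the sign kept, 52 of the 77 phosphate genes had a higher fitted change at pH 6 than at pH 5, against 10206 of all 20450 genes (49.9%). A smaller fall at pH 6 counts as higher here. The median change of the 77 was 0.28 at pH 6 and 0.13 at pH 5.

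**Figure D3:**
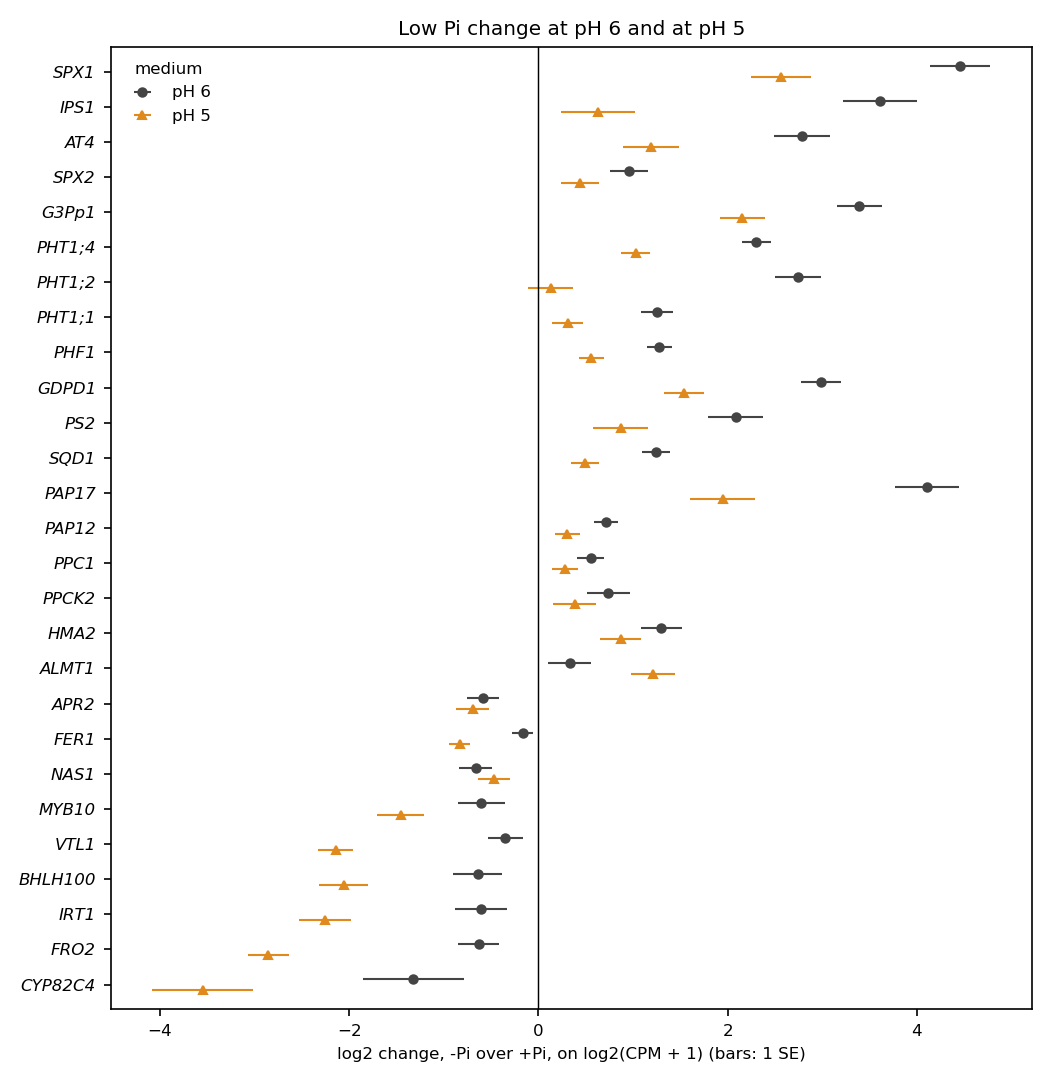
Change in low Pi (x axis, log2 of -Pi over +Pi on log2(CPM + 1)) of 27 genes at pH 6 (dark circles) and at pH 5 (orange triangles), 2 libraries per condition, with bars of 1 SE. Phosphate genes from *SPX1* (4.46 at pH 6, 2.57 at pH 5) to *PAP12* lie further right at pH 6, and iron genes such as *FRO2* (-0.63 at pH 6, -2.85 at pH 5) lie further left at pH 5.

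The share of promoters with P1BS was counted for each set of genes. In the window from 250 bases before to 50 after the annotated start, 1265 of 20413 promoters held it (6.2%). It was there in 7 of the 12 genes that rose at pH 6 (58.3%), in 12 of the 36 that were higher when all 24 libraries set the spread (33.3%) and in 1 of the 35 that were lower (2.86%). In the kilobase before the start it was in 4162 of 20413 promoters (20.4%), in 16 of those 36 (44.4%) and in 6 of those 35 (17.1%). No test was run on these shares.

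Of the genes of iron uptake, *FRO2* fell in low Pi at pH 5, and most of the others had negative changes. Roots of *Arabidopsis* acidify the soil, reduce ferric iron with FRO2 and import ferrous iron with IRT1, under the control of bHLH factors, and secrete coumarins that mobilize iron. *FRO2* (AT1G01580) had 294 and 221 CPM in -Pi_pH6 and 35.5 and 27.0 CPM in -Pi_pH5, against 470 and 332 CPM in +Pi_pH6 and 232 and 228 CPM in +Pi_pH5. Both -Pi_pH5 libraries stood far below the other 6. At pH 5 *FRO2* fell 7.23-fold (change -2.85 ± 0.21, limma adjusted p = 0.0166). At pH 6 the change was -0.63 (limma adjusted p = 0.907), over both pH values -1.74 ± 0.40 (limma adjusted p = 0.356), and the difference between the pH values was -2.22 (limma adjusted p = 0.594).

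*IRT1* had 421 and 324 CPM in -Pi_pH6 and 130 and 76.2 CPM in -Pi_pH5, against 678 and 466 CPM in +Pi_pH6 and 474 and 488 CPM in +Pi_pH5. The groups did not overlap, and the change of -1.43 ± 0.33 was not called (limma adjusted p = 0.37; at pH 5 -2.26, adjusted p = 0.104). *IRT1* was called in 1 of 21 alternatives. *BHLH100*, a bHLH factor of the iron deficiency response, had 10.2, 8.32, 2.87 and 5.04 CPM in low Pi and 18.4, 12.1, 19.6 and 18.6 CPM with Pi. *CYP82C4*, which hydroxylates coumarins for secretion, had 64.0, 29.6, 9.92 and 6.26 CPM in low Pi and 199, 60.7, 104 and 102 CPM with Pi. *BHLH100* lay wholly lower and *CYP82C4* overlapped through 1 library of each group. Both, with *FRO2*, passed when all 24 libraries set the spread.

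*NAS1* and *NAS2*, for nicotianamine synthases that make the metal chelator nicotianamine, lay wholly lower in low Pi. *NAS1* had 126 to 165 CPM in low Pi and 198 to 265 CPM with Pi, and *NAS2* had 33.7 to 43.9 CPM and 48.9 to 73.1 CPM. *PYE*, a bHLH factor, had 16.5 to 17.9 CPM and 18.6 to 22.7 CPM, and AT2G30766 had 0.097 to 0.517 CPM and 0.916 to 4.39 CPM, each with no overlap. *MYB72*, which drives coumarin release, had 0 to 2.93 CPM in low Pi and 2.5 to 10.5 CPM with Pi. *FRU* (FIT), the central bHLH factor of iron uptake, had 23.5 to 59.9 CPM in low Pi and 44.1 to 62.4 CPM with Pi, with a change of -0.50 (limma adjusted p = 0.729). All 33 listed uptake genes were in the table. Their median change was -0.38, which was -0.22 at pH 6 and -0.55 at pH 5, and 30 of 33 were negative. In 6 the low Pi libraries lay wholly lower (18.2%, against 1.22% of all genes) and in none wholly higher. The edgeR likelihood ratio test called 11 of the 33 lower, against 0.494% of all genes, and none higher. In *stop1*, limma called 10 of the 33 lower, against 0.372% of all genes, and none higher. *FRO5*, another reductase, had 4.98 to 11.9 CPM at pH 6 and 0.145 to 0.927 CPM at pH 5 whether Pi was given or not.

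**Figure D4:**
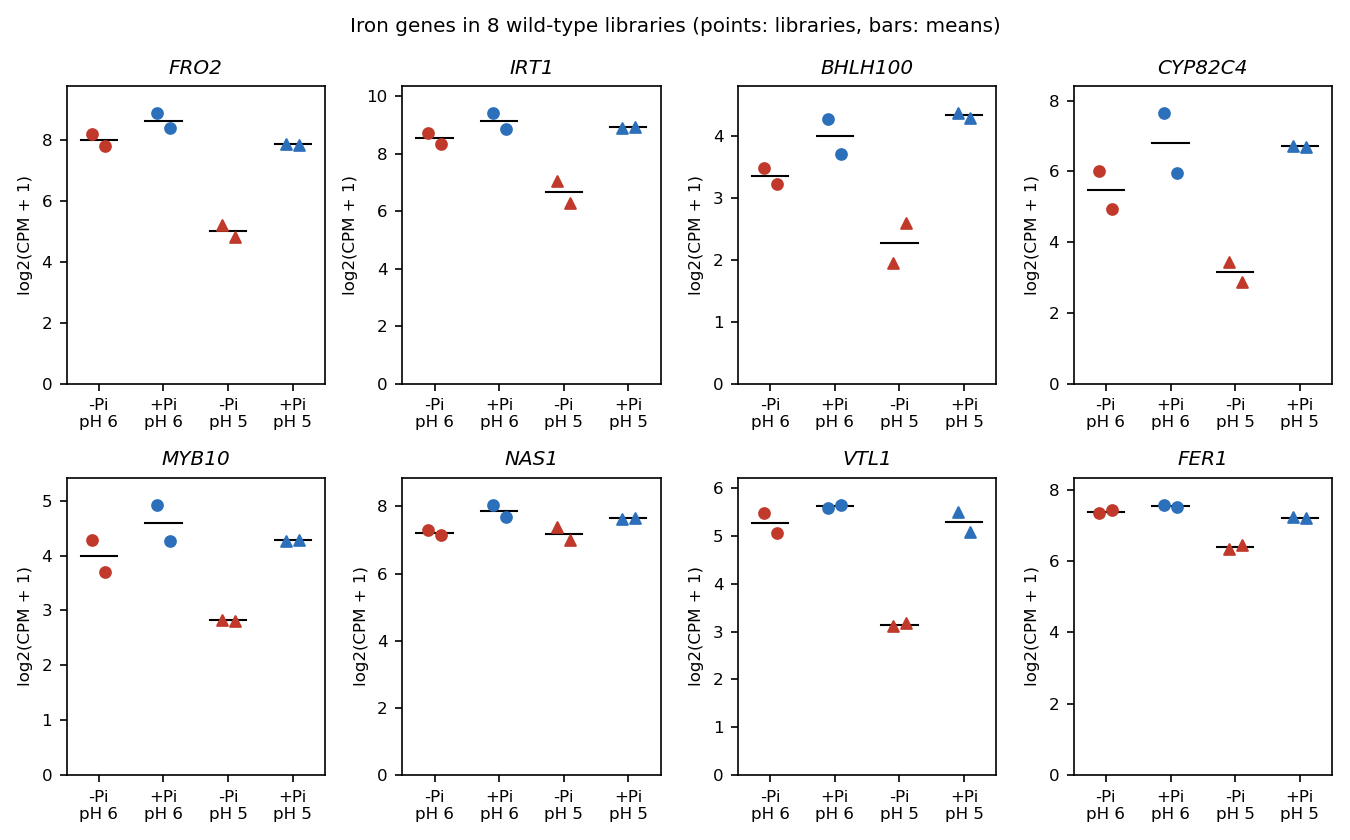
Levels of 8 iron genes in the 8 wild-type libraries (y axis, log2(CPM + 1); x axis, condition; red, -Pi; blue, +Pi; circles, pH 6; triangles, pH 5; bars, means of 2 libraries). The -Pi_pH5 libraries are the lowest for *FRO2*, *IRT1*, *BHLH100*, *CYP82C4*, *MYB10*, *VTL1* and *FER1*, while for *NAS1* the change is -0.66 at pH 6 and -0.47 at pH 5.

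Among iron storage genes, *VTL1*, a vacuolar iron transporter-like protein, had 43.8 and 32.3 CPM in -Pi_pH6 and 7.62 and 8.10 CPM in -Pi_pH5, against 47.1 and 49.5 CPM in +Pi_pH6 and 44.1 and 32.8 CPM in +Pi_pH5. It fell 4.41-fold at pH 5 (limma adjusted p = 0.0172), and its change at pH 6 was -0.35. *VTL2* had 3.29 and 2.81 CPM in -Pi_pH5 and 14.6 and 12.5 CPM in +Pi_pH5, with 24 and 11.3 CPM in -Pi_pH6 and 21.5 and 17.3 CPM in +Pi_pH6. *FER1*, for the iron store ferritin, had 79.0 and 85.7 CPM in -Pi_pH5 and 149 and 145 CPM in +Pi_pH5, while -Pi_pH6 had 160 and 171 CPM and +Pi_pH6 191 and 181 CPM. Its change of -0.83 at pH 5 was not called (limma adjusted p = 0.143). The median change of the 9 storage genes in the table was -0.26. *MTPA2*, a tonoplast zinc transporter and the third gene that fell at pH 5, was chosen after its values were seen. *MTPA2* had 32.9 and 31.3 CPM in -Pi_pH6 and 14.2 and 16.9 CPM in -Pi_pH5, against 47.0 to 55.7 CPM with Pi, and fell 3.17-fold at pH 5 (limma adjusted p = 0.0172).

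*ALMT1*, the malate channel of the STOP1 pathway, was highest where low Pi and low pH met. It had 23.1 and 21.6 CPM in -Pi_pH5 and 8.74 and 9.39 CPM in +Pi_pH5, with 6.81 and 5.09 CPM in -Pi_pH6 and 5.92 and 3.36 CPM in +Pi_pH6. Its change at pH 5 was 1.22 (limma adjusted p = 0.521) and over both 0.77 ± 0.21 (limma adjusted p = 0.603). *ALMT1* passed when all 24 libraries set the spread. *STOP1* had 125 to 177 CPM in low Pi and 121 to 140 CPM with Pi, *LPR1* and *LPR2* had changes of 0.01 and 0.13, and *PDR2*, which restrains LPR1, had 0.18. None of the 17 genes of this list in the table lay wholly higher or lower, and the median was 0.13.

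In *stop1* roots in the same 4 media, 81 genes rose in low Pi (0.396%) and 76 fell (0.372%). These counts come from 16 libraries with 1 coefficient per condition. The wild-type counts of 2 and 1 come from 8 libraries and another model, so they are not like for like. When all 24 libraries set the spread, 84 genes rose and 84 fell in *stop1*, beside 36 and 35 in the wild type. The libraries of the mutant are separate from those of the wild type. *SPX1* changed by 4.14 in *stop1* beside 3.51 in the wild type, *G3Pp1* by 2.71 beside 2.77, *GDPD1* by 2.61 beside 2.26, *PAP17* by 3.25 beside 3.03 and *PHT1;4* by 1.71 beside 1.67, each of them called in *stop1* by limma. *PHO2*, uncalled in the wild type, fell in *stop1* (change -0.83, limma adjusted p = 0.0154), and *FRO2* fell by 2.05 on the log2 scale (limma adjusted p = 0.0141). For *ALMT1* the change was -0.08 in *stop1* beside 0.77 in the wild type, a difference of -0.86 (limma adjusted p = 0.796). No gene passed the test of the difference between genotypes (0 of 20450, 0%, limma), with 1230 genes at an unadjusted p under 0.05 and 3, 0 and 7 genes by the edgeR likelihood ratio, edgeR quasi-likelihood and DESeq2 tests. Of the 36 genes higher in the wild type when all 24 libraries set the spread, 34 had the same sign in *stop1*, and of the 35 lower genes all 35 did. The share of all genes with the same sign in both genotypes is not given here, so these counts are a description.

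Of the genes of sulfate assimilation, *APR2* stood out by its separate groups. *APR2*, for the reductase that commits sulfate to assimilation, had 108, 108, 125 and 116 CPM in low Pi and 179, 148, 231 and 166 CPM with Pi. Its groups did not overlap (change -0.64 ± 0.11, limma adjusted p = 0.217). AT1G04770, a tetratricopeptide repeat gene of the sulfur list, had 31.4, 32.9, 53.7 and 44.1 CPM in low Pi and 70.2, 50.1, 100.5 and 78.0 CPM with Pi, and its groups overlapped. Both passed when all 24 libraries set the spread. The 12 sulfate genes had a median change of -0.47, with 10 negative.

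Of the 7 zinc genes 6 had positive changes, with a median of 0.18. *HMA2*, the pump that loads zinc into the xylem, had 52.9 and 77.4 CPM in -Pi_pH6 and 35.4 and 34.6 CPM in -Pi_pH5, against 21.5 and 30.1 CPM in +Pi_pH6 and 16.8 and 20.8 CPM in +Pi_pH5. The groups did not overlap. Its change was 1.08 ± 0.16 (limma adjusted p = 0.12), and it passed when all 24 libraries set the spread. *ZIP5*, a zinc importer, also lay wholly higher, at 12.8 to 17.4 CPM in low Pi and 8.67 to 11.9 CPM with Pi. Among the 9 nitrate genes the median was 0.04 and none passed by limma or by the edgeR likelihood ratio test. *NRT2.1*, the high-affinity nitrate transporter, had 157, 375, 28.9 and 6.45 CPM in low Pi and 339, 802, 68.6 and 37.7 CPM with Pi, so that its replicates differed by more than the groups at pH 6.

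Flavonoid, defence, root hair, mitosis and root cell type genes had medians from -0.13 to 0.06, beside -0.0028 over all genes. None passed by limma with 8 or with 24 libraries, and the edgeR likelihood ratio test called 1 flavonoid gene, *DFR*, lower. Their medians were -0.13 over 10 flavonoid genes (9 negative, 1 positive), 0.05 over 9 defence genes, 0.04 over 7 root hair genes, -0.13 over 8 mitosis genes and 0.06 over 12 root cell type genes. The 8 mitosis genes all had negative changes, from -0.20 to -0.09, with a median of -0.31 at pH 6 and 0.00 at pH 5. *MYB12*, the flavonol regulator (31.4 to 39.8 CPM in low Pi, 41.0 to 43.5 CPM with Pi), and *APL*, the phloem identity factor (15 to 16.1 CPM and 16.5 to 18.4 CPM), lay wholly lower without a call.

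**Figure D5:**
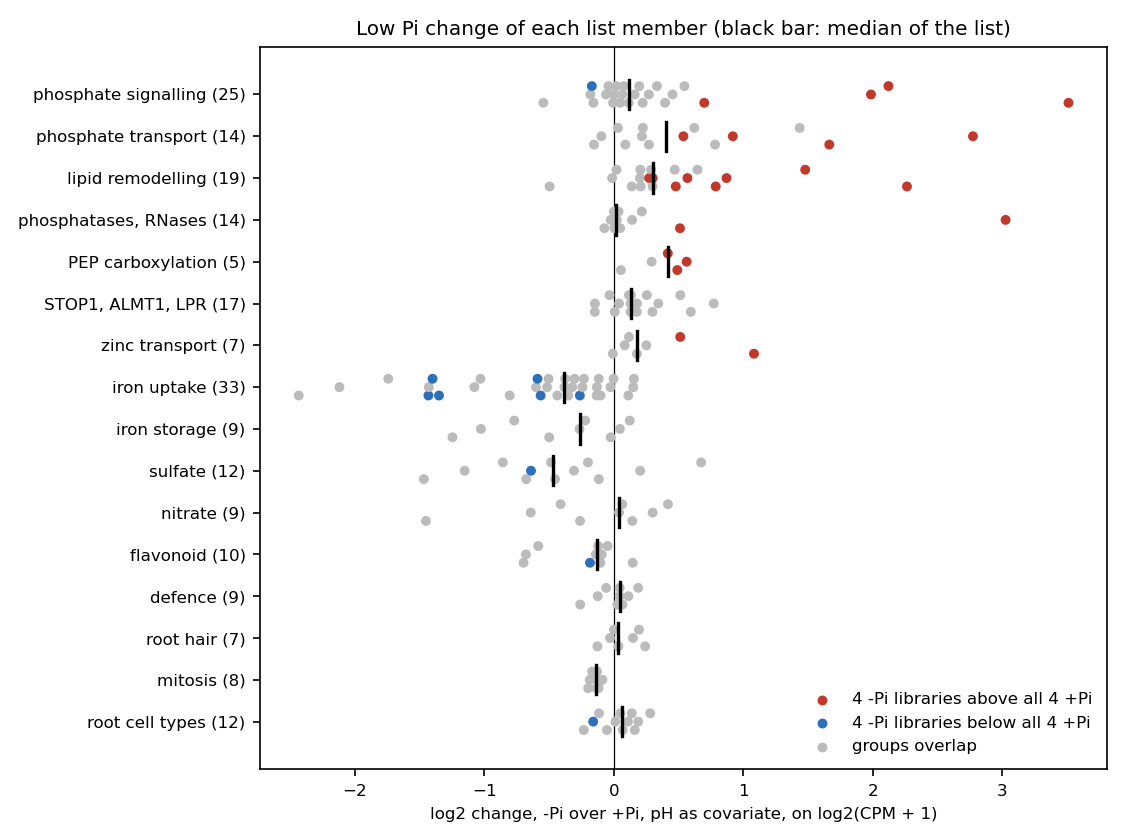
Change in low Pi of every listed gene in the table (x axis, log2 of -Pi over +Pi, pH as covariate, on log2(CPM + 1)), 1 row per list with the number of genes in brackets. Red points are genes whose 4 low Pi libraries lay above all 4 libraries with Pi, blue points those that lay below, grey points overlapped, and black bars are medians, which run from 0.42 for PEP carboxylation to -0.47 for sulfate.

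Outside the lists, AT4G10500 (chromosome 4, 6491017 to 6492578) was the gene that fell over both pH values. It had 4.96 and 3.39 CPM in -Pi_pH6 and 2.35 and 1.99 CPM in -Pi_pH5, against 10.3 and 12.3 CPM in +Pi_pH6 and 6.24 and 8.63 CPM in +Pi_pH5. Every low Pi library was lower. The change was -1.33 ± 0.15 (limma adjusted p = 0.0495), with adjusted p between 5.44e-10 and 0.579 over 21 alternatives and 11 under the threshold. Taken alone, neither pH passed (-1.26 with a limma adjusted p of 0.279 at pH 6, and -1.40 with 0.202 at pH 5).

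The following genes were chosen after their values were seen. AT5G20790, an uncharacterized gene, had 55.5 and 21.3 CPM in -Pi_pH6 and 6.21 and 8.39 CPM in -Pi_pH5, against 2.24 to 3.36 CPM with Pi, and rose 9.54-fold at pH 6 (limma adjusted p = 0.0438). The gene *scpl14*, a serine carboxypeptidase-like gene, had 0.587, 0.453, 0.282 and 0.097 CPM in low Pi and 6.37, 10.4, 2.93 and 1.33 CPM with Pi, and was the gene that fell at pH 6 (6.05-fold, limma adjusted p = 0.0389). All of its low Pi libraries were under 1 CPM and all libraries with Pi above it.

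*PFA-DSP1*, *PFA-DSP2* and *PFA-DSP4* encode phosphatases of a small family, members of which are known to cleave inositol pyrophosphates. *PFA-DSP1* had 127, 96.8, 112 and 114 CPM in low Pi and 47.9, 52.5, 70.6 and 58.6 CPM with Pi, close to the threshold (change 0.97 ± 0.12, limma adjusted p = 0.0648). *PFA-DSP2* had 39.4 to 62.9 CPM in low Pi and 22.9 to 36.3 CPM with Pi, and *PFA-DSP4* had 8.93 to 21.5 CPM and 5.66 to 6.61 CPM. In all 3 the low Pi libraries lay wholly higher, and all 3 passed when all 24 libraries set the spread. *DGR2*, a DUF642 gene of the cell wall, had 124 and 113 CPM in -Pi_pH6 and 232 and 244 CPM in -Pi_pH5, against 64.1 and 72.8 CPM in +Pi_pH6 and 151 and 165 CPM in +Pi_pH5. It was higher in low Pi within each pH and overlapped across pH (change 0.68 ± 0.08, limma adjusted p = 0.0648).

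Among the lower genes, 3 neighbours on chromosome 5 (AT5G41280, AT5G41290 and AT5G41300, 16509507 to 16516331), annotated as receptor-like protein kinase-related, had negative changes. AT5G41290 had 10.2 and 9.84 CPM in -Pi_pH6 and 2.54 and 1.5 CPM in -Pi_pH5, against 19.6 and 39.5 CPM in +Pi_pH6 and 9.55 and 8.99 CPM in +Pi_pH5. AT5G41280 had 24.2, 22.2, 7.66 and 7.61 CPM in low Pi and 35.3, 61.9, 25.9 and 24.1 CPM with Pi. Within each pH the low Pi libraries were lower, and the gene nearest the threshold was AT5G41290 (change -1.59 ± 0.21, limma adjusted p = 0.104). All 3 passed when all 24 libraries set the spread. *cwINV6*, annotated as a fructan exohydrolase, had 11.3 to 21.0 CPM in low Pi and 23.7 to 57.6 CPM with Pi, and *ARD3*, an acireductone dioxygenase of methionine salvage, had 2.63 to 10.1 CPM and 11.8 to 84.5 CPM. Both lay wholly lower, and both passed when all 24 libraries set the spread.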

How the data were processed

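The study's methods and the submitters' processing notes name trimming with Trimmomatic, alignment to TAIR10 with HISAT2 2.1.0, counting per gene with HTSeq 0.11.2 and scaling with edgeR 3.28.0. The strand setting of the counting is not given in the sources used here. The authors deposited 1 table of a normalized signal, CPM with a scaling factor per library, for 20450 genes and 24 libraries. As the values show, all genes kept exceed 1 CPM in 2 or more libraries. Samples were grouped by their labels, and 0 columns were left unused. In 100% of values a whole number of reads was recovered (tolerance 0.01 of a read), which gave the depth of each library.

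The main test was limma 3.58.1 in R 4.3.3 (linear model of Pi and pH, trended moderated test, two-sided) on log2(CPM + 1), a pseudocount of 1, over the 8 wild-type libraries, with Benjamini-Hochberg adjustment over 20450 genes and a threshold of 0.05. The residual degrees of freedom were 5, and the prior added 4.07. Changes within each pH, and their difference, came from 1 coefficient per condition in the same libraries, and the genotype comparison from 16 libraries. Replicate numbers are from the sample titles, and the study's methods describe the replicates as biological. Alternatives were edgeR 4.0.16 (likelihood ratio test, as in the study: 45 genes higher and 101 lower; quasi-likelihood test: 2 and 2) and DESeq2 1.42.0 on the recovered reads, other scalings and filters, a pseudocount of 0.1, all 24 libraries (1 coefficient per condition), the model without pH or with its interaction, a block for the replicate number and omission of each library in turn. The steps were tested on simulated data, and figures were drawn with Python 3.11.15 and matplotlib 3.10.9.

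The libraries were taken by their labels, and the gene lists were chosen with earlier results of these data known. Of 231 listed genes, 210 were in the table. Genes named are list members, called genes with the smallest p whose groups did not overlap (at most 15 higher and 10 lower, which gave 3), and genes said to be chosen after their values were seen. Symbols, positions and sequences are from RefSeq (TAIR10.1), which matched 20414 genes. Of 121 genes examined for the text, 1 shared its strand and position with another gene, and 24 lay across from a gene of the other strand, among them *PAP17*, *GDPD1*, *DGR2*, *APR2* and AT1G04770.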

Additional observations from a re-analysis of the deposited data

Results flagged for a closer look

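In 246 sets of 4 libraries (low Pi or with Pi), 32 held 1 library whose gap to the next was over Dixon's 95% critical value for a group of 4. Of these 32, 14 were among the 18 sets of 9 genes picked for their split between libraries, which largely fixed that outcome. The other sets gave 18 of 228. For 4 values drawn from 1 normal population, about 1 in 20 sets would pass. Each set here held libraries of both pH values, and all sets came from the same 8 libraries. The counts therefore cannot be read against that rate and are a description. The 43 genes taken by symbol prefix as photosynthesis genes of the shoot summed to 1987.7 CPM in replicate 2 of +Pi_pH5, with the next library with Pi at 622.79 CPM.

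Replicate 1 of -Pi_pH6 was the highest of the low Pi libraries for *PHO1;H1* (54.573 CPM), *SQD2* (61.061 CPM), *GDPD2* (94.672 CPM) and *BHLH38* (7.4655 CPM). Replicate 2 of -Pi_pH5 was lowest in low Pi for *NLA* (28.415 CPM) and highest for *ZIP5* (17.408 CPM).

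Replicate 1 of +Pi_pH6 was the highest library with Pi for *IRT1* (678.17 CPM), *MYB72* (10.455 CPM), *MYB10* (29.477 CPM) and *NAS1* (265.04 CPM). Replicate 2 of +Pi_pH6 was lowest for *PAH1* (22.13 CPM) and *BHLH100* (12.108 CPM) and highest for *ARD3* (84.503 CPM). Replicate 1 of +Pi_pH5 was lowest for *PPCK1* (50.954 CPM) and *VTC4* (21.652 CPM) and highest for *ZIP5* (11.884 CPM), and replicate 2 of +Pi_pH5 was highest for *MGD2* (1.7734 CPM).

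The 14 sets of the genes picked for their split were as follows, and are a description. Replicate 2 of -Pi_pH6 was the lowest low Pi library for *IMP4* (2.3759 CPM), *MEE49* (2.8284 CPM), AT5G40530 (0.96166 CPM), *DIM1B* (0.67882 CPM) and AT1G50000 (0.33941 CPM). Replicate 2 of +Pi_pH5 was the highest library with Pi for *IMP4* (52.396 CPM), *MEE49* (72.911 CPM), AT1G52930 (80.529 CPM), AT3G15460 (28.737 CPM), AT5G40530 (21.362 CPM), *DIM1B* (9.391 CPM), *FIO1* (9.1089 CPM), AT3G13180 (8.0206 CPM) and AT1G50000 (5.5218 CPM).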

How the results depend on the processing

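Over both pH values (2 genes higher, 1 lower), the counts higher and lower were 45 and 101 by the edgeR likelihood ratio test, 2 and 2 by its quasi-likelihood test, 46 and 84 by DESeq2, 1 and 0 with library size only, 4 and 1 with filterByExpr or a mean CPM of at least 1, 2 and 2 with a pseudocount of 0.1, 36 and 35 with all 24 libraries, 0 and 0 without pH, 12 and 7 with the interaction of pH and Pi, and 0 to 4 and 0 to 11 without 1 library. Chosen after seeing the data, leaving out both libraries rich in shoot genes gave 0 and 1. At pH 6 (12 and 1) they were 44 and 26, 41 and 20 (DESeq2), 0 lower with a pseudocount of 0.1, 29 and 5 with 24 libraries, and 3 to 12 and 0 to 2 without 1 library. At pH 5 (0 and 3) they were 12 and 44, 15 and 56, 1 higher with either filter, 6 and 11, and 0 to 4 and 0 to 8. The Pi by pH interaction (0) had 17, 17 and 1 genes (likelihood ratio, DESeq2, 24 libraries) and 0 to 2 without 1 library, and the genotype difference (0) had 3, 7 and 0, and 0 to 1. The cause was not tested. Same-numbered replicates were not paired by the labels, and their deviations correlated between -0.12 and 0.35. With a replicate block the counts were 1 and 0 over both pH values, 7 lower and 1 higher at pH 5, and within 1.5 times elsewhere. Of the named genes' values under the alternatives, none changed direction while called. In the limma fit of 8 libraries, with 2 per condition, even the change of 2.57 of *SPX1* at pH 5 did not pass. When all 24 libraries set the spread, 4 of the 77 phosphate genes in the table were called higher at pH 5.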

Other observations

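Chosen after seeing the data, genes were listed whose 8 wild-type libraries fell into 2 sets of at least 3, parted by more than 2 units of log2(CPM + 0.2). There were 13. *SPX1* was parted by Pi and *FRO5* by pH. In 9 genes the low set was replicate 2 of -Pi_pH6, both libraries of +Pi_pH6 and replicate 1 of +Pi_pH5, at 0.204 to 3.42 CPM, and the high set the other 4, at 4.90 to 95.7 CPM. *IMP4*, a Brix-domain gene of ribosomal RNA processing, had 54.1 and 2.38 CPM in -Pi_pH6 and 59.3 and 51.4 CPM in -Pi_pH5, against 0.969 and 1.53 CPM in +Pi_pH6 and 0.651 and 52.4 CPM in +Pi_pH5. *MEE49*, of the same family, had 70.4, 2.83, 76.6 and 77.9 CPM in low Pi and 2.14, 2.65, 2.06 and 72.9 CPM with Pi. The others were AT1G52930 and AT3G15460 (Brix domain), *DIM1B* (ribosomal RNA adenine dimethylase family), *FIO1*, AT5G40530 and AT1G50000 (methyltransferases) and AT3G13180 (NOL1/NOP2/sun family). As the sets hold 3 of 4 low Pi libraries high and 3 of 4 libraries with Pi low, the fitted changes were 1.00 to 2.60, and none was called (limma adjusted p 0.75 to 0.754). The cause of the split was not tested.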
